A study of Mus musculus with 31 samples.

Results

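Mitochondrial ribosomal protein genes were followed in newly made and in older RNA of mouse embryonic stem cells with and without Dicer. They were taken as the protein-coding genes of the GENCODE M21 annotation whose symbol starts with Mrpl or Mrps followed by a digit and whose level averaged at least 1 TPM (a transcript level scaled to length and to the library's total) over 16 libraries. All 78 genes with such a symbol met the limit, out of 21821 genes and unmatched entries, 11279 of them protein-coding, that reached 1 TPM. The rule used no measured difference, though earlier results of these data were known when it was chosen. They are called members below.

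The cells were DTCM23/49 XY embryonic stem cells, an established mouse line with a conditional Dicer1 gene, grown with LIF, a cytokine that keeps them undifferentiated. In the Dicer-depleted cultures the loss of Dicer1, whose product cuts microRNA precursors into mature microRNAs, was induced with 800 nM 4-hydroxytamoxifen, and the WT cultures carry the same label of 8 days, so whether WT cells also received the drug is not clear from the labels. Newly made RNA was labelled with 200 µM 4-thiouridine (4sU) for 10 or 15 minutes, and labelled RNA was separated from the RNA that was already there, which is called preexisting although the titles call it total. The 16 libraries come from 2 Dicer-depleted and 2 WT cultures, each with 2 fractions and 2 labelling times. For each culture and fraction the mean TPM of both labelling times was used, so n is 2 cultures per genotype throughout. The other 15 libraries of the series hold small RNA and were not used here.

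The mammalian mitochondrial ribosome makes the few proteins that the mitochondrial genome encodes, all of them parts of the respiratory chain and ATP synthase. Its ribosomal RNAs come from mitochondrial DNA, whereas every one of its proteins is encoded in the nucleus, made in the cytosol and imported. Some of these proteins have a counterpart in the bacterial ribosome and others were gained on the way to mitochondria; the large subunit forms the peptide bond and the small subunit decodes the mRNA. Nuclear respiratory factors, ETS factors of the GABP type and YY1 are known regulators of such genes.

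Promoter windows of 5 members show the motifs of those factors that were searched for. The windows are the 100 bases before the RefSeq start, on the strand of the gene (GRCm38.p6), and capitals mark CCGGAAG (ETS), AAGATGGCG (YY1) or, in the Mrpl9 window, the letters of the NRF1 motif, read on either strand. Mrpl43 and Mrps22 hold the ETS letters near the start, Mrpl52 holds them on the other strand, Mrpl9 holds the NRF1 letters and Mrpl36 the YY1 letters on the other strand. They lie at chr19:45006443-45006542 (minus strand) for Mrpl43, chr14:54426809-54426908 (plus strand) for Mrpl52, chr9:98601680-98601779 (minus strand) for Mrps22, chr3:94443236-94443335 (plus strand) for Mrpl9 and chr13:73330909-73331008 (plus strand) for Mrpl36.
Mrpl43: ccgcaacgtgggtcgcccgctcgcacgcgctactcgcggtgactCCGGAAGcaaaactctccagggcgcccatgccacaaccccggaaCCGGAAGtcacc
Mrpl52: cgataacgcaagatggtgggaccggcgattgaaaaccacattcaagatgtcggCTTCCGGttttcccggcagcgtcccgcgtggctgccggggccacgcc
Mrps22: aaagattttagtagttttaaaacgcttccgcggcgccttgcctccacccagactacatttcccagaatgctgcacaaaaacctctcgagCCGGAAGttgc
Mrpl9: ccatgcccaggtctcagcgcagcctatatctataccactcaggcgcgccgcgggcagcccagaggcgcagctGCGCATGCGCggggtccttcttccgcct
Mrpl36: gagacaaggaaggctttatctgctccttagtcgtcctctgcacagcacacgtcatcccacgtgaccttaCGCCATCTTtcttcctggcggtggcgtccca

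In the full RefSeq windows, from 250 bases before to 50 after the start, 65 members had a window and 23 of them (35.4%) held the ETS letters, against 20.7% of 7459 protein-coding genes with a window. The YY1 letters stood in 8 members (12.3%) against 3.86% of all windows, and the NRF1 letters in 2 (3.08%) against 2.40%. TATAAA stood in 5 (7.69%, against 7.01%) and the MYC E box CACGTG in 4 (6.15%, against 10.7%). These are matches of letters, with both strands read, and no binding was measured.

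The microRNAs of embryonic stem cells were matched to the 3′ untranslated regions of the members in the same way. The sequences below carry the 2 seeds (bases 2 to 8, in capitals) that were searched for. miR-295-3p and miR-302b-3p share a seed, which pairs with AGCACTT, and the seed of miR-17-5p, shifted by 1 base, pairs with GCACTTT. The mature sequences are from RefSeq (GRCm38.p6; chr7:3220815-3220837, chr3:127545275-127545297 and chr14:115043684-115043706, all on the plus strand).
miR-295-3p: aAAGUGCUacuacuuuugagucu
miR-302b-3p: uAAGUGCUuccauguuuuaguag
miR-17-5p: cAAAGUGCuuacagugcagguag

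Of 77 members with an annotated coding transcript in the table, 11 held at least 1 of these matches (14.3%), against 16.8% of 11228 protein-coding genes, and they were Mrpl3, Mrpl9, Mrpl19, Mrpl35, Mrpl47, Mrpl51, Mrps5, Mrps7, Mrps24, Mrps25 and Mrps35. Mrps5 and Mrps35 carry a run that holds both matches at once. Mrps24, one of the members furthest below WT in the depleted cells, carries the miR-17 match. The 3 sites lie at chr2:127606363-127606387 (Mrps5, plus strand), chr6:147072437-147072461 (Mrps35, plus strand) and chr11:5704428-5704448 (Mrps24, minus strand), in mm10.
Mrps5: gtgtgcctaAGCACTTtctcttcac
Mrps35: tggcatatcAGCACTTtaaagactc
Mrps24: aaagtGCACTTTtctccagta

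Dicer1 itself, at chr12, was measured first. It had 2.22 and 3.16 TPM in preexisting RNA of the 2 Dicer-depleted cultures, against 15.5 and 17.6 TPM in the 2 WT cultures, a log2 difference of -2.26 ± 0.24 (SE, n = 2 cultures each; limma adjusted p = 0.0353). In labelled RNA it had 3.31 and 2.44 TPM in depleted and 7.59 and 8.86 TPM in WT cultures (log2 difference -1.26 ± 0.24, limma adjusted p = 0.15). In both fractions each depleted culture lay below each WT culture. The test shared 1 estimate of spread over both fractions. With only the 2 preexisting groups in the fit, 0 genes passed, so Dicer1 did not pass there. All 12 embryonic stem cell markers on the list were above 1 TPM, 7 of them had a positive preexisting difference and the median was 0.08. Their summed preexisting level was 1728 and 1730 TPM in depleted cultures and 1868 and 1903 TPM in WT cultures, but Tdgf1 alone had 600 and 655 TPM in depleted cultures and 733 and 985 TPM in WT cultures. Without it the sums overlapped, at 1128 and 1076 TPM in depleted cultures and 1135 and 918 TPM in WT cultures. Of markers of other cell types, 2 of 10 fibroblast, 3 of 8 primitive endoderm and 3 of 8 neural and mesoderm genes reached 1 TPM, and none of the listed genes was at 0 in every library. All 3 sums were higher in both depleted cultures in preexisting RNA, and their part in the members' differences was not tested. Gene by gene, 1 of 3 primitive endoderm and 1 of 3 neural and mesoderm markers had a negative preexisting difference. The 2 fibroblast markers were positive. The primitive endoderm sum, mostly Sparc, was 811 and 755 TPM in depleted cultures and 422 and 387 TPM in WT cultures. The fibroblast sum, mostly Vim, was 110 and 166 TPM in depleted cultures and 71.8 and 85.1 TPM in WT cultures. The neural and mesoderm sum was 41.1 and 43.4 TPM in depleted cultures and 30.5 and 32.2 TPM in WT cultures. In labelled RNA the neural and mesoderm sums overlapped, at 24.8 and 38.2 TPM in depleted cultures and 27.6 and 26.7 TPM in WT cultures. The fibroblast and primitive endoderm sums were higher in both depleted cultures there too.

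The members spanned a wide range of levels. Their mean over the 16 libraries ran between 2.62 and 134 TPM with a median of 17.0 TPM, against a median of 10.2 TPM over all protein-coding genes tested. Of the 78 members, 51 averaged 10 TPM or more, 14 averaged 50 TPM or more and 13 were under 5 TPM. TPM is already scaled to length, but each level sums all transcript types of a gene. It may also hold reads shared with pseudogene copies or overlapping genes. The order of the members is therefore a rough guide, and a protein's amount was not measured.

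Both of the highest members belong to the large subunit and have bacterial counterparts: Mrpl30 averaged 134 TPM (chr1:37890477-37898535, plus strand) and Mrpl15 averaged 131 TPM (chr1:4773206-4785739, minus strand). They were followed by Mrpl58 at 73.5 TPM, a release factor relative built into the large subunit that can free stalled peptides, by Mrpl21 at 73.0 TPM, by the small subunit protein Mrps17 at 66.1 TPM and by Mrpl18 at 64.1 TPM, a protein of the central protuberance. The lowest were Mrps34 at 2.62 TPM, Mrpl57 at 2.77 TPM, Mrpl54 at 3.11 TPM, Mrpl11 at 3.12 TPM, Mrpl41 at 3.72 TPM and Mrpl35 at 3.72 TPM. Neighbours in this order were close: Mrpl30 had 136 and 150 TPM in preexisting RNA of depleted cultures and 157 and 142 TPM in WT cultures, where Mrpl15 had 107 and 111 TPM in depleted cultures and 149 and 102 TPM in WT cultures, so the ranges of these 2 genes overlapped in WT cells and not in depleted cells. In labelled RNA Mrpl15 was the higher of them in all 4 cultures, with 140 and 151 TPM in depleted cultures and 152 and 138 TPM in WT cultures, where Mrpl30 had 114 and 96.8 TPM in depleted cultures and 141 and 137 TPM in WT cultures, so their order in the pooled mean holds for preexisting RNA alone.

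By role, small subunit proteins with a bacterial counterpart had the highest median level, 26.8 TPM over 16 genes, followed by large subunit proteins with a bacterial counterpart with 18.1 TPM over 30 genes. Proteins specific to mitochondria had medians of 14.3 TPM over 10 small subunit genes and 13.5 TPM over 21 large subunit genes. The 5 genes of the stalk that recruits translation factors (Mrpl10, Mrpl11, Mrpl12, Mrpl53 and Mrpl54) were low, between 3.11 and 11.7 TPM. The 8 genes of the central protuberance, where a mitochondrial tRNA takes the place of the small ribosomal RNA that bacteria have there, lay between 9.24 and 73.5 TPM. The 6 genes around the exit of the peptide tunnel, among them Mrpl45, which faces the inner membrane, lay between 9.36 and 62.4 TPM.

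The deposited table splits a gene by transcript, and for the members this split was large. The 78 genes had 297 exonic entries, of which 153 were protein-coding transcripts, 74 retained introns, 53 other processed transcripts and 17 targets of nonsense-mediated decay. Coding transcripts held a median of 63.8% of a member's TPM, 28 members had under 50% there, and Mrpl32, which an inner-membrane protease trims before it joins the ribosome, had no coding entry at all. Across libraries, retained introns took 19.2 to 20.97% of the members' exonic signal in labelled RNA of depleted cultures and 18.4 to 20.4% in WT cultures, and 13.6 to 15.7% in preexisting RNA of depleted cultures and 15.8 to 17.0% in WT cultures. The last 2 ranges did not overlap.

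Added up, the members had a lower level in the depleted cultures in both fractions. In preexisting RNA the sum was 1781 and 1453 TPM in the depleted cultures (mean 1617 ± 232, SD), against 2317 and 1828 TPM in the WT cultures (mean 2073 ± 346, SD). In labelled RNA it was 1816 and 1928 TPM in the depleted cultures (mean 1872 ± 78.8, SD) and 2481 and 2143 TPM in the WT cultures (mean 2312 ± 239, SD). Neither pair of ranges overlapped between cultures, but single libraries did: the 15 minute library of depleted culture 1 had 1926 preexisting TPM, above both libraries of WT culture 2 at 1746 and 1909 TPM. The 10 minute preexisting library of WT culture 1 was the highest of its fraction at 2458 TPM. In bulk samples, fewer cells that express a gene and less of its RNA per cell cannot be told apart.

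**Figure D1:**
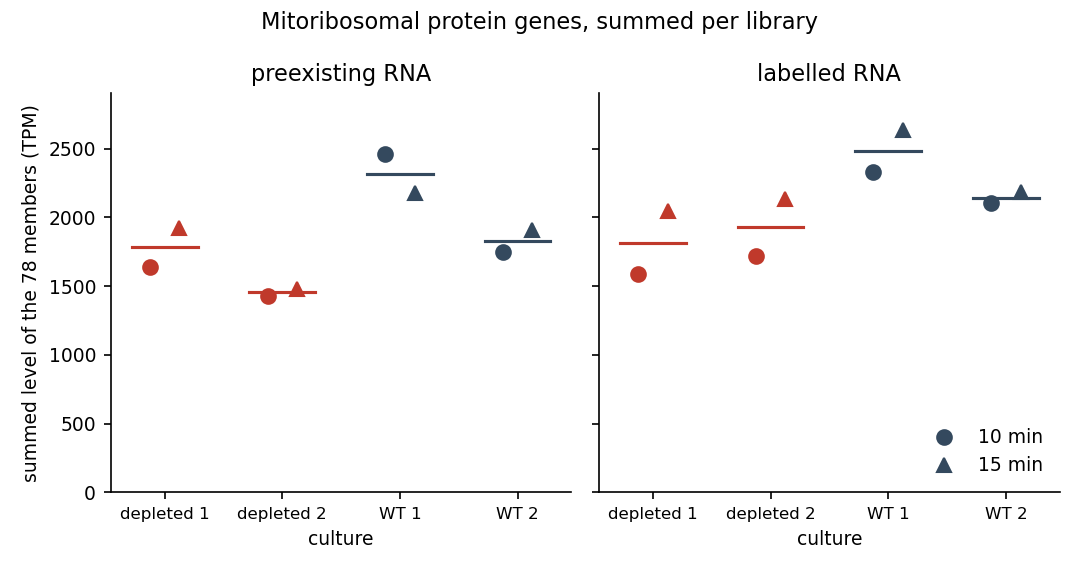
Summed level of the 78 members in TPM in each library, by culture, with Dicer-depleted cultures left of WT cultures; circles are 10 and triangles 15 minute libraries and lines the mean of each culture. In labelled RNA the depleted culture means are 1816 and 1928 TPM and the WT culture means 2481 and 2143 TPM.

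Both subunits took part. The large subunit summed to 1152 and 944 TPM in preexisting RNA of depleted cultures, against 1508 and 1159 TPM in WT cultures, and the small subunit to 534 and 450 TPM against 747 and 629 TPM. The ratio of large to small subunit sums was taken in each library and then averaged per culture. In preexisting RNA it was 2.19 and 2.17 in depleted cultures and 2.02 and 1.84 in WT cultures. Single depleted libraries reached from 1.68 to 2.65, wider than the gap between genotypes. In labelled RNA the ratio was 2.00 and 1.93 in depleted and 1.94 and 1.91 in WT cultures.

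Gene by gene, no member passed the test in preexisting RNA. The test was limma on log2(TPM + 1) over all 21821 genes and entries, with an adjusted p under 0.05 as the threshold; a fold change on that scale understates the change of low genes. It called 0.0871% of all genes higher and 0.0183% lower in depleted cells (0.105% in either direction); 20 members were under an unadjusted p of 0.05, all of them lower in depleted cells, against 7.4% of all genes lower and 10.1% higher. The log2 difference was negative for 64 of the 78 members, with a median of -0.31, where protein-coding genes had a median of 0.06. By role, medians were -0.43 over the 30 large subunit genes with a bacterial counterpart, -0.29 over the 21 specific to mitochondria, -0.48 over the 16 small subunit genes with a bacterial counterpart and -0.20 over the 10 specific to mitochondria.

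Without requiring a test, 32 of the 78 members (41.0%) were lower in both depleted cultures than in both WT cultures in preexisting RNA, against 19.3% of all genes, and 2 members were higher in both, Mrps2 and Mrps22, against 25.1% of all genes. All 4 depleted libraries lay below all 4 WT libraries for 6 members, Mrpl24, Mrpl42, Mrpl47, Mrps17, Mrps24 and Mrps33, against 2.87% of all genes, and above them for 0 members, against 7.03%. The median difference kept its sign when any 1 culture was left out, between -0.54 and -0.16; it was -0.18 without depleted culture 2 and -0.16 without WT culture 1.

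**Figure D2:**
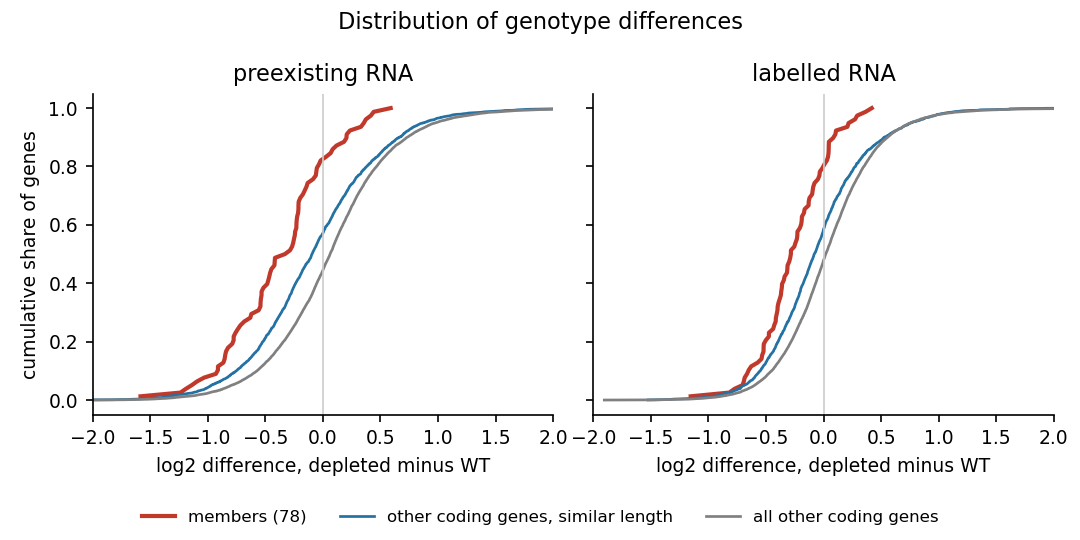
Cumulative share of genes against the log2 difference, Dicer-depleted minus WT, in preexisting (left) and labelled RNA (right), for the 78 members, for 2709 other coding genes of similar transcript length and for all other coding genes tested. The members' curve lies to the left, with a median of -0.31 in preexisting and -0.28 in labelled RNA.

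The difference went with transcript length, with a Spearman rho of 0.233 over 11228 protein-coding genes and 0.244 over 77 members, which all share the same libraries. The members' leading coding transcripts had a median length of 1056 bases, with 540 coding bases, a 3′ untranslated region of 284 bases and 4 exons, against 2315 bases, 1149 coding bases, 642 bases and 8 exons over all protein-coding genes tested. Over coding genes the preexisting log2 difference had a median of -0.10 in the shortest 20% and 0.20 in the longest 20%. The 2709 other coding genes whose leading transcript lay between 749 and 1764 bases, the middle range of the members, had a median of -0.09 in preexisting RNA, and 27.2% of them were lower in both depleted cultures. The part of length in the members' difference was not tested.

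The members with the most negative differences were mostly small subunit proteins. Mrps17, a protein with a bacterial counterpart that binds the ribosomal RNA of the small subunit (chr5:129715497-129722556, plus strand), had 33.1 and 57.4 TPM in depleted culture 1 and 15.8 and 18.2 TPM in depleted culture 2, against 99.4 and 73.3 TPM in WT culture 1 and 98.4 and 70.9 TPM in WT culture 2, with the 10 minute library first. Every depleted library was below every WT library. The log2 difference was -1.58 ± 0.39 (SE, n = 2 cultures each; limma adjusted p = 0.130).

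Mrps24, which sits where the mRNA enters the small subunit (chr11:5703983-5715680, minus strand), had 12.5, 40.2, 39.3 and 27.6 TPM in the 4 depleted libraries, against 97.5, 63.3, 49.8 and 76.9 TPM in the 4 WT libraries. The groups did not overlap, though library by library the WT values varied widely. Its log2 difference was -1.24 ± 0.22 (SE; limma adjusted p = 0.0688).

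Mrpl18, a protein of the central protuberance (chr17:12911349-12916345, minus strand), had 25.3, 70.4, 29.2 and 58.5 TPM in the 4 depleted libraries and 101, 95.9, 132 and 66.1 TPM in the 4 WT libraries. The highest depleted library, at 70.4 TPM, was above the lowest WT library, at 66.1 TPM, whereas the culture means were apart. Its log2 difference of -1.09 ± 0.18 (SE) had the lowest limma adjusted p of all members, 0.0562, and passed the threshold at 0.0426 when the 2 labelling times were averaged on the log2 scale instead of the TPM scale, a setting chosen after seeing the data. Its exons share 124 bases with Tcp1 on the other strand, which averaged 448 TPM, and a pseudogene copy of it held 18.5 TPM; whether the library kept strand is not given in the sources used here, so reads of Mrpl18 and Tcp1 may not be separable.

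The other 3 of the 6 lowest were Mrpl55, Mrps16 and Mrps26. Mrpl55 had 8.18 and 7.41 TPM in depleted cultures and 28.8 and 12.5 TPM in WT cultures. Mrps16 had 3.21 and 4.30 TPM in depleted cultures and 12.1 and 7.24 TPM in WT cultures, and Mrps26 had 2.10 and 0.938 TPM against 4.80 and 3.32 TPM. All 3 were lower in both depleted cultures, with log2 differences of -1.19, -1.14 and -1.03, and for Mrpl55 and Mrps16 the 2 WT cultures lay further from each other than the 2 depleted ones.

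At the other end, Mrps36 had the most positive difference. It is the 1 member placed in neither subunit here, since its product is now known as a subunit of the alpha-ketoglutarate dehydrogenase complex. It had 95.6 and 59.3 TPM in depleted cultures and 62.9 and 39.3 TPM in WT cultures (log2 difference 0.59 ± 0.35, SE; limma adjusted p = 0.423), so the groups overlapped, with depleted culture 2 below WT culture 1. It also had 8 pseudogene copies in the table, holding 36.1 TPM in all.

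Mrps22, a small subunit protein specific to mitochondria (chr9:98588730-98601660, minus strand), had 7.91, 8.96, 11.3 and 13.1 TPM in the depleted libraries and 8.86, 5.89, 7.81 and 6.36 TPM in the WT libraries, with a log2 difference of 0.44 ± 0.25 (SE; limma adjusted p = 0.408). Mrps2, with a bacterial counterpart on the back of the small subunit (chr2:28468066-28471178, plus strand), had 46.6, 54.5, 40.6 and 37.1 TPM in the depleted libraries and 30.9, 39.5, 32.1 and 29.7 TPM in the WT libraries (log2 difference 0.42 ± 0.20, SE; limma adjusted p = 0.326). Both were higher in both depleted cultures, and in labelled RNA too, with single libraries that overlapped. Mrps15, Mrps18a and Mrps11 followed with 0.37, 0.35 and 0.33; Mrps11 turned to -0.30 without depleted culture 1, which held 6.40 TPM where depleted culture 2 held 2.08 TPM, and Mrps15 to -0.16 in the 15 minute libraries alone.

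**Figure D3:**
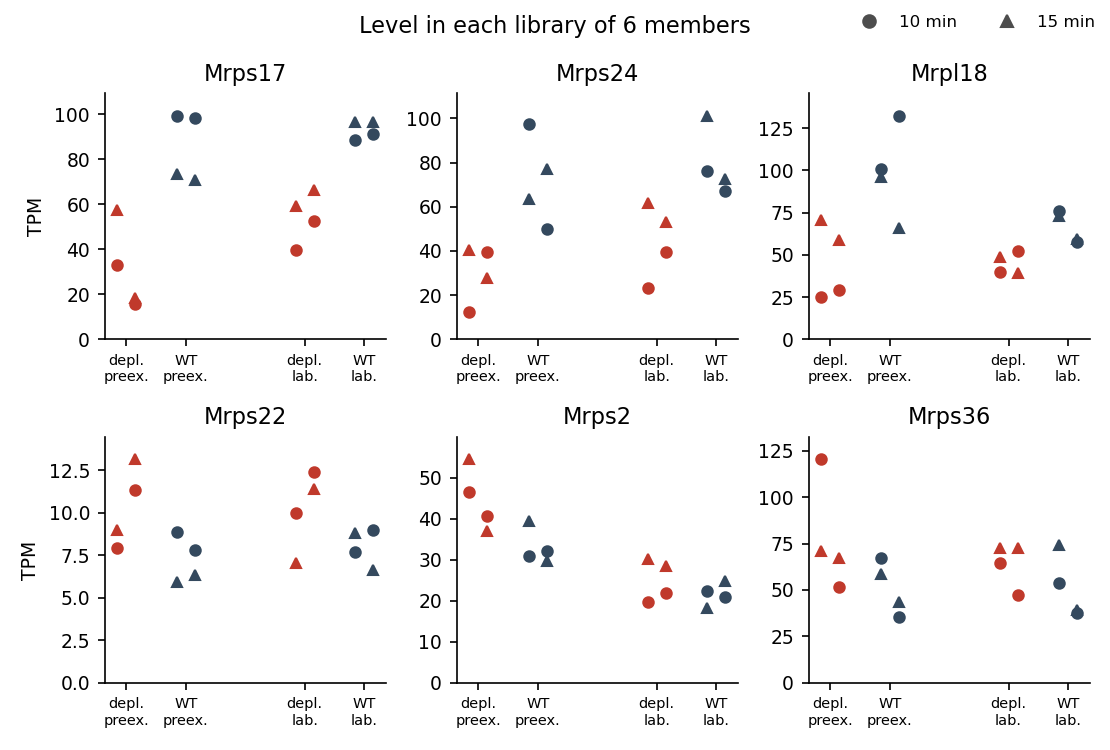
TPM in each library of 6 members, 3 with a negative and 3 with a positive preexisting log2 difference, Dicer-depleted minus WT. Depleted libraries (red) stand left of WT libraries (dark) in preexisting and in labelled RNA. Circles are 10 and triangles 15 minute libraries. For Mrps17 every depleted library lies below every WT library, whereas for Mrps36 the groups overlap.

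The 3 Mrps18 paralogues, relatives of 1 bacterial protein, did not share a value. Mrps18a, which in mammals sits in the large subunit, had 24.5 and 17.0 TPM in preexisting RNA of depleted cultures and 17.5 and 14.1 TPM in WT cultures. Mrps18b had 52.6 and 23.4 TPM in depleted cultures and 53.5 and 31.2 TPM in WT cultures, and Mrps18c had 35.0 and 23.0 TPM in depleted cultures and 60.0 and 40.4 TPM in WT cultures. Their log2 differences were 0.35, -0.21 and -0.78, none passed the test, and whether they differ from each other was not tested.

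In labelled RNA, which was made in the last 10 or 15 minutes, again no member passed, where limma called 0.119% of all genes higher and 0.0412% lower (0.16% in either direction). The median log2 difference of the members was -0.28, against 0.02 over protein-coding genes, and 62 of the 78 were negative. At an unadjusted p of 0.05, 7 members were lower, against 4.14% of all genes lower and 8.29% higher. In 41 members (52.6%) both depleted cultures were below both WT cultures, against 20.2% of all genes and 29.4% of the other coding genes of similar length, and 3 were above, Mrpl48, Mrps2 and Mrps22, against 30.3% of all genes.

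By labelling time, the median was -0.47 in the 10 minute libraries alone and -0.14 in the 15 minute libraries alone. All 4 depleted libraries lay below all 4 WT libraries for 11 members (Mrpl10, Mrpl13, Mrpl18, Mrpl24, Mrpl30, Mrpl36, Mrpl42, Mrpl47, Mrps11, Mrps17 and Mrps24), against 4.50% of all genes, and above them for Mrpl48, against 10.9%. In 17 members both depleted cultures were below both WT cultures in each fraction. That was 21.8% of the members, against 10.5% of all genes and 15.6% of the other coding genes of similar length.

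Mrps11 had the most negative labelled difference. This relative of a bacterial protein of the small subunit platform (chr7:78783119-78792989, plus strand) had 2.53 and 2.85 TPM in labelled RNA of depleted cultures and 7.65 and 6.77 TPM in WT cultures, a log2 difference of -1.15 ± 0.39 (SE; limma adjusted p = 0.322), whereas in preexisting RNA the cultures overlapped. It shares 173 exonic bases with its neighbour Mrpl46 on the other strand. Mrps24 followed with 42.4 and 46.2 TPM in depleted cultures and 88.6 and 70.0 TPM in WT cultures (-0.82), and Mrps17 with 49.4 and 59.4 TPM against 92.6 and 94.0 TPM (-0.77). Mrpl20, Mrpl2 and Mrpl28 had -0.70, -0.69 and -0.68.

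Mrpl48, of the central protuberance (chr7:100545751-100608301, minus strand), had the most positive labelled difference, with 31.8, 31.1, 33.7 and 26.7 TPM in the depleted libraries and 23.0, 19.2, 22.6 and 26.6 TPM in the WT libraries. The groups did not overlap, by a narrow margin (log2 difference 0.42 ± 0.26, SE; limma adjusted p = 0.543). Its preexisting RNA did not follow, with 12.7 and 8.34 TPM in depleted cultures and 15.4 and 10.5 TPM in WT cultures. It shares 708 exonic bases with Rab6a on the other strand, which averaged 103 TPM. Mrps36, Mrps22, Mrpl32, Mrpl17 and Mrps2 followed at 0.37, 0.29, 0.27, 0.22 and 0.21; Mrpl32 was at -0.01 without depleted culture 2 and Mrps2 at -0.06 in the 10 minute libraries alone.

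Across the 78 members the differences in the 2 fractions went together, with a Pearson r of 0.52 and a Spearman rho of 0.56. The points share the same 4 cultures and the same libraries' composition, so this is a description of these samples.

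**Figure D4:**
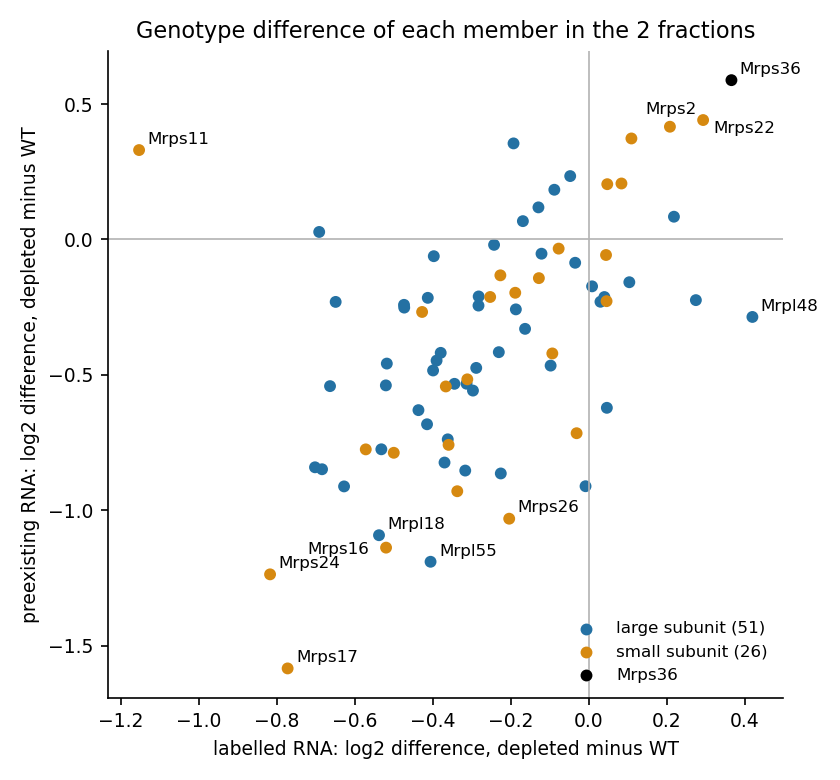
Log2 difference, Dicer-depleted minus WT, of each of the 78 members in labelled RNA (x axis) and preexisting RNA (y axis), with 51 large subunit and 26 small subunit members and Mrps36 in separate colours. Most points lie in the lower left, Mrps17 and Mrps24 furthest out, and Mrps11 stands apart with a labelled difference of -1.15 and a preexisting one of 0.33.

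The introns of the same genes mostly had positive differences, where their exons had negative ones. Intronic signal in labelled RNA, which reads on RNA not yet spliced, was summed per gene and could be tested for 65 members. Of these, 0 passed in a test that called 3.90% of all 12472 genes tested in introns higher and 0.0241% lower in depleted cells (3.93% in either direction). At an unadjusted p of 0.05 it was 7 members, against 31.0% of all genes tested in introns higher and 0.714% lower. The members' median difference was 0.20, against 0.28 over coding genes, and it turned to -0.08 when each library was centred on its median gene. In 32 of the 65 members (49.2%) both depleted cultures were above both WT cultures, against 59.9% of all genes tested in introns, and in 1, Mrpl20, below, against 3.92%. Across these 65 members the labelled exonic and intronic differences had a Pearson r of 0.52 and a Spearman rho of 0.50, over the same libraries. Summed over all members, intronic signal was 681 and 757 TPM in depleted cultures and 579 and 660 TPM in WT cultures.

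Intronic signal as a whole was higher in the depleted libraries: it took 18.5 to 23.3% of labelled depleted libraries and 15.5 to 18.4% of labelled WT libraries, so the share that is left for exons differed between genotypes, and its part in the members' values was not tested. Against protein-coding exons alone, the members took 0.393 and 0.407% of labelled depleted cultures and 0.510 and 0.441% of labelled WT cultures, and 0.294 and 0.238% against 0.393 and 0.304% in preexisting RNA. The culture means did not overlap in either fraction on this scale, but single libraries did. In labelled RNA depleted culture 2 had 0.44228% at 15 minutes, above both libraries of WT culture 2 at 0.43929 and 0.44224%. In preexisting RNA depleted culture 1 had 0.3215% at 15 minutes, above both libraries of WT culture 2 at 0.2880 and 0.3208%. The most positive intronic differences were those of Mrpl48 (0.67 ± 0.22, SE; limma adjusted p = 0.0970), Mrps36 (0.65 ± 0.21), Mrpl39 (0.58), Mrpl50 (0.55), Mrpl17 (0.51) and Mrps15 (0.51), and the most negative were those of Mrps17 (-0.70 ± 0.73), Mrps2 (-0.51), Mrpl12 (-0.29), Mrpl20 (-0.26), Mrps24 (-0.22) and Mrps11 (-0.22).

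Preexisting over labelled RNA is a ratio that rises with stability when synthesis is steady, though here it also carries the scaling of 2 differently prepared fractions. In depleted cells 1 member was higher and 12 were lower in preexisting than in labelled RNA, where limma called 13.1% of all genes higher and 31.2% lower (44.3% in either direction), and, of protein-coding genes, 17.7% higher and 12.0% lower. In WT cells 1 member was higher and 4 were lower, where 9.51% of all genes were higher and 27.3% lower (36.8% in either direction). Of protein-coding genes in WT cells, 12.1% were higher and 8.88% lower. The lower share of the members was 15.4% in depleted and 5.13% in WT cells. Over the 2709 other coding genes of similar length it was 15.1% and 9.63%. In depleted cells it was 38.2% of cytosolic ribosomal protein genes, 34.2% of nuclear-encoded respiratory chain subunits and 5.41% of proteasome subunits. At an unadjusted p of 0.05 it was 5 members higher and 21 lower in depleted cells, against 17.0% and 36.3% of all genes, and 3 higher and 8 lower in WT cells, against 14.1% and 33.5%. The members' median log2 ratio was -0.24 in depleted and -0.13 in WT cells, against 0.07 and 0.04 over coding genes, negative under the scaling to coding genes too (-0.60 and -0.40) but positive when each library was centred on its median gene (0.27 and 0.34). The direction of the calls turned with it: the scaling to coding genes gave 0 higher and 34 lower in depleted and 0 higher and 16 lower in WT cells, and centring gave 16 higher and 4 lower in depleted and 13 higher and 0 lower in WT cells. The 4 lower calls in WT cells were therefore lost with centring, and of the 5 WT calls Mrpl18 alone passed there. Under each of these scalings the members' median was below that of coding genes, which was -0.25 and -0.20 with the first and 0.57 and 0.51 with the second.

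The 12 lower members in depleted cells were Mrpl48, Mrpl55, Mrps10, Mrps26, Mrpl32, Mrpl13, Mrpl14, Mrpl52, Mrps18c, Mrps14, Mrps24 and Mrpl24. All 12 also passed with the scaling to coding genes, and 4 of them, Mrpl48, Mrpl55, Mrps10 and Mrps26, with libraries centred on the median gene. Mrpl48 was furthest down, with 12.7 and 8.34 TPM in preexisting and 31.5 and 30.2 TPM in labelled RNA, a fold of 0.355 (log2 -1.49 ± 0.25, SE; limma adjusted p = 0.00842); with its coding transcripts alone the log2 ratio was -0.62 and did not pass. None of the 13 calls passed under every alternative: the count in depleted cells was 3 without WT culture 2, 4 without WT culture 1 and 8 without depleted culture 2.

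Mrps10, a small subunit protein with a bacterial counterpart (chr17:47368887-47381417, plus strand), passed in both genotypes, with 27.5 and 19.6 TPM in preexisting and 47.2 and 60.1 TPM in labelled RNA of depleted cultures, and 36.5 and 43.8 TPM in preexisting and 59.9 and 78.6 TPM in labelled RNA of WT cultures. Its fold was 0.446 in depleted cells (limma adjusted p = 0.0130) and 0.588 in WT cells (limma adjusted p = 0.0494). Mrpl13 and Mrpl24, both of the large subunit, also passed in both: Mrpl13 had folds of 0.493 in depleted and 0.562 in WT cells, and Mrpl24 had 0.716 in depleted and 0.687 in WT cells, but in depleted cells the log2 ratio of Mrpl24 was 0.02 after centring on the median gene. Mrpl49 was the fourth lower member in WT cells (fold 0.528, limma adjusted p = 0.0287).

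Mrps2 was the 1 member higher in preexisting RNA of depleted cells, with 50.6 and 38.9 TPM in preexisting and 24.97 and 25.2 TPM in labelled RNA (fold 1.74; log2 0.80 ± 0.19, SE; limma adjusted p = 0.0213), and it passed after centring but not with the scaling to coding genes. Mrpl18 was the 1 higher member in WT cells, with 98.5 and 99.2 TPM in preexisting and 74.4 and 58.5 TPM in labelled RNA (fold 1.49, limma adjusted p = 0.0412). In depleted cells it had 47.8 and 43.9 TPM in preexisting and 44.4 and 45.9 TPM in labelled RNA. All 5 WT calls were lost without either WT culture.

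Averaged over the genotypes, the highest ratios were those of Mrpl10, Mrps2, Mrpl4, Mrpl2, Mrps15 and Mrps18a, and the lowest those of Mrpl48, Mrps10, Mrpl33, Mrpl13, Mrpl55 and Mrpl20. Mrpl10, which anchors the stalk, had a log2 ratio of 0.91 in depleted and 0.49 in WT cells, and Mrpl4 had 0.60 in depleted and 0.64 in WT cells. Mrpl33 had -1.07 in depleted and -0.83 in WT cells. The 78 ratios went together in the genotypes, with a Pearson r of 0.66 and a Spearman rho of 0.69, over cultures that do not overlap but were prepared alike.

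**Figure D5:**
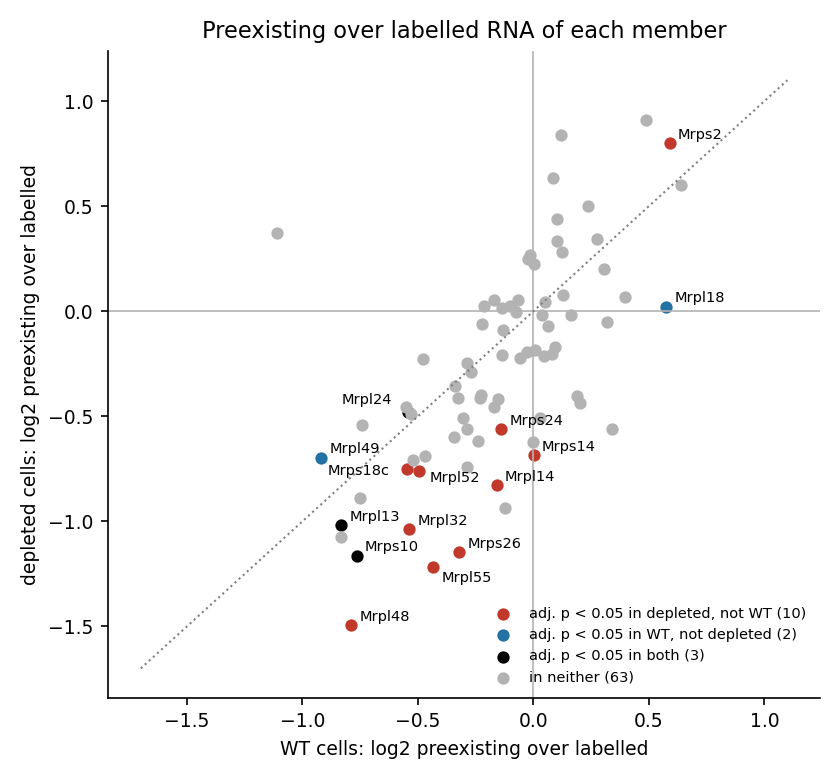
Log2 of preexisting over labelled RNA of each member in WT cells (x axis) and Dicer-depleted cells (y axis), coloured by where the limma adjusted p is under 0.05; the dotted line marks equal values. Mrpl48, Mrpl13 and Mrps10 lie at the lower left and Mrps2 at the upper right, and 63 members passed in neither genotype.

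The change of this ratio with genotype did not pass for any member or for any gene (0.0% of all genes in either direction); at an unadjusted p of 0.05 it was 3 members, against 2.15% of all genes lower and 1.82% higher. The members' median was -0.15, against 0.03 over coding genes, and it did not keep its sign, at 0.06 without depleted culture 2, 0.01 without WT culture 1 and 0.02 in the 10 minute libraries alone. Mrps11 had the most positive value, 1.48 ± 0.51, followed by Mrpl2 (0.72), Mrps18a (0.55), Mrpl10 (0.42), Mrpl30 (0.34) and Mrpl45 (0.28), and Mrpl44 the most negative, -0.90, followed by Mrps26 (-0.83), Mrps17 (-0.81), Mrpl55 (-0.78), Mrpl48 (-0.71) and Mrps14 (-0.68); the limma adjusted p was 1.00 for each of these 12. Among them, Mrpl10 was at -0.09 and Mrpl45 at -0.36 without depleted culture 1, and Mrps17 was at 0.00 without depleted culture 2.

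Members with and without a microRNA match were set side by side in each fraction. The 11 with a match had a median preexisting difference of -0.16 and the 66 without one -0.37, whereas over coding genes the medians were 0.22 with and 0.02 without a match. In labelled RNA the medians were -0.09 with and -0.31 without a match among members, and 0.15 with and -0.01 without over coding genes. No member with a match passed in either fraction. The 3′ untranslated regions of the 11 ran from 466 to 5497 bases, against a median of 284 bases over the 77 members. The genotype difference also went with transcript length, so a match and length cannot be told apart here. The part of either was not tested.

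Labelled RNA after 15 minutes was compared with that after 10 minutes within each culture. No member passed, in a test that called 0.00458% of all genes higher and 0.0% lower. At an unadjusted p of 0.05 it was 17 members, against 6.1% of all genes higher and 4.28% lower. The members' median log2 difference was 0.21, against 0.04 over coding genes, and 63 of 78 were positive. In 20 members (25.6%) the 15 minute level was higher in all 4 cultures, against 9.15% of all genes, and in 3, Mrpl46, Mrps14 and Mrps6, it was lower in all 4, against 9.68%. The medians were 0.39 and 0.33 in the depleted cultures and 0.08 and 0.04 in the WT cultures, and whether that differs by genotype was not tested. The 2709 coding genes of similar length had a median of 0.11, and 16.3% of them were higher at 15 minutes in all 4 cultures. Cytosolic ribosomal protein genes had a median of 0.49, nuclear-encoded respiratory chain subunits 0.45 and proteasome subunits 0.15. In the same order, 18.4%, 31.6% and 18.9% of them were higher in all 4 cultures.

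Proteins of the mitochondrial ribosome with other symbols had differences of the same sign as the members' median. Dap3, a GTP-binding protein of the small subunit, and Aurkaip1 were the highest of the 5; Dap3 had a log2 difference of -0.18 in preexisting and -0.49 in labelled RNA, and Aurkaip1 had -0.49 and -0.54. All 5 were negative in both fractions and 0 passed the test.

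Among the 22 measured factors that assemble the mitochondrial ribosome, 15 were negative in preexisting RNA with a median of -0.22, and 11 in labelled RNA with a median of -0.01; 0 passed. Gtpbp10, a GTPase of large subunit assembly, and Dhx30 were the highest and had preexisting differences of -0.08 and 0.12. Of 14 mitochondrial translation factors, 11 were negative in preexisting and 12 in labelled RNA, with medians of -0.38 and -0.18, and 0 passed; the initiation factor Mtif2 and Slirp, a partner of Lrpprc that protects mitochondrial mRNA, were highest, with preexisting differences of 0.08 and -0.45. For 6 mitochondrial transcription genes the median was -0.25 in preexisting RNA, with Tefm at -0.18 and Tfb2m at 0.71, and 0 passed.

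The ratio of preexisting over labelled RNA is given for these lists as a description, since many genes of any kind were called in it: 13.1% of all genes higher and 31.2% lower in depleted cells, and 9.51% higher and 27.3% lower in WT cells. Of protein-coding genes, 17.7% were higher and 12.0% lower in depleted cells, and 12.1% higher and 8.88% lower in WT cells. In depleted cells 1 of 22 assembly factors was higher (Eral1, log2 0.91) and 7 (31.8%) were lower, near the share of all genes and above that of protein-coding genes. The 7 were Mrm3 (-1.43), Nsun4 (-1.14), Rpusd4 (-1.03), Mettl17 (-0.96), Mterf4 (-0.85), Fastkd2 (-0.76) and Dhx30 (-0.70). In WT cells 0 were higher and 3 (13.6%) lower, Nsun4 (-1.49), Mettl15 (-1.32) and Dhx30 (-0.71). Of the 14 translation factors, 4 were lower in each genotype (28.6%), also near the share of all genes and above that of protein-coding genes. Both lists are short, and whether they differ from protein-coding genes was not tested. Gfm1 was higher in depleted and WT cells (0.67 and 0.64); Mtrf1l (-1.76 in depleted and -0.96 in WT cells), Slirp (-1.45 and -0.86) and Mtif2 (-0.63 and -0.79) were lower in both, Mtfmt (-0.76) in depleted cells and Guf1 (-0.63) in WT cells. Mterf1a was lower in depleted and WT cells (-1.39 and -1.01), and Mterf1b (-0.81) in depleted cells.

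Of 9 known regulators measured, 7 had a positive preexisting difference, with a median of 0.17, and 0 passed; Gabpa, the DNA-binding subunit of GABP, averaged 166 TPM with 0.18, Nrf1 had 0.17, Yy1 had 0.06 and Pprc1, a coactivator, had 0.17, whereas Myc had -0.29 and Mycn -0.43. In the ratio of preexisting over labelled RNA, where 44.3% of all genes in depleted and 36.8% in WT cells were called in either direction, 5 regulators in depleted and 6 in WT cells were called. Of protein-coding genes, 17.7% were higher and 12.0% lower in depleted cells, and 12.1% higher and 8.88% lower in WT cells. Gabpa (0.82 in depleted and 0.77 in WT cells) and Yy1 (0.72 and 0.97) were higher and Nrf1 (-0.88 and -0.99) and Gabpb2 (-1.03 and -0.88) were lower in both genotypes, Pprc1 (0.86) was higher in depleted cells, and Myc (0.82) and Mycn (0.51) were higher in WT cells. Of 10 genes of the mitochondrial stress response 7 were negative in preexisting RNA, with a median of -0.26, and 0 passed; Hspd1 and Asns, the highest, had 0.24 and -0.25. In the ratio 4 were called in depleted and 3 in WT cells, beside the same shares of all genes. Hspd1 (0.88 in depleted and 0.76 in WT cells) and Hspa9 (0.73 and 0.68) were higher and Ddit3 (-1.60 and -1.52) was lower in both genotypes, and Hspe1 (-0.57) was lower in depleted cells. The mRNAs encoded by mitochondrial DNA were not analysed here.

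Other gene families of steady use also had negative medians. Cytosolic ribosomal protein genes had a median preexisting difference of -0.71 over 76 genes, all negative, and 88.2% of them were lower in both depleted cultures. The 79 nuclear-encoded respiratory chain subunits had -0.48 and 54.4%, and the 37 proteasome subunits -0.32 and 45.9%, beside -0.31 and 41.0% for the members. In labelled RNA the medians were -0.52, -0.29 and -0.28, beside -0.28 for the members. In the same order, 93.4%, 45.6% and 56.8% were lower in both depleted cultures there, beside 52.6% of the members. In each of the 2 fractions it was 86.8%, 35.4% and 35.1%, beside 21.8% of the members. No gene of the 3 families passed the test in either fraction.

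Reads may be shared between some members and other genes. Exons of 25 members overlap those of another gene at 1 TPM or more by over 30 bases, 20 of them on the other strand, where strand was not stated. Pseudogenes with at least 90% identity over 200 bases or more were in the table for 20 members, 36 in all, and for 15 members they held over 20% of the member's TPM; for Mrpl42 and Mrps16 they held more than the gene itself. For Mrpl42, a large subunit protein, the copy held 36.2 TPM, and the gene had 21.1 and 15.9 TPM in preexisting RNA of depleted cultures and 37.9 and 32.9 TPM in WT cultures. With the copies added to their genes, the members' median difference was -0.32 in preexisting and -0.29 in labelled RNA.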

How the data were processed

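The 16 libraries of 4sU-labelled and preexisting RNA were made with the Ovation RNA-Seq kit; per the labels' protocols, STAR 2.5.0 served first to discard ribosomal reads and then to align what remained to exons and introns, RSEM gave the levels, and the build was mm10 per the submitters' processing notes. Strand setting and depth are not given in the sources used here, so no counting interval can be given. The deposited values are a signal named TPM by the authors, but each column sums to between 9999997 and 10000003, so 10 units make 1 TPM, and values were divided by 10. Exonic entries (110366 of 121429 matched) and intronic entries were summed per gene of GENCODE M21.

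Both labelling times of each culture were averaged in TPM, genes under a mean of 1 TPM were left out, and log2(TPM + 1) was tested with limma 3.58.1 (R 4.3.3; trend, Benjamini-Hochberg over all genes, threshold 0.05). Fractions of a culture were paired for the preexisting-to-labelled ratios alone. The genotype tests shared 1 estimate of spread over both fractions and took the 2 fractions of a culture as independent. With only the 2 groups compared, 0 genes passed in preexisting RNA, against 19 higher and 4 lower. The lowest limma adjusted p of a member there was 0.457, against 0.0562. In labelled RNA 18 genes were higher and 9 lower, against 26 and 9. The fits were also run on simulated data in which the 2 fractions of a culture varied independently. That run therefore does not cover fractions of a culture that vary together. The labels call the cultures biological replicates; p-values measure only the spread between these samples. Sequences came from RefSeq and GENCODE, and copies were found with BLAST 2.17.0. Alternatives were another pseudocount (0.1), no filter, each culture left out, a replicate block, single labelling times and other scalings.

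The members and gene lists were chosen with earlier results of these data known. Named are members past the threshold (at most 12 a direction), the 6 highest and 6 lowest in each genotype comparison, in level and in ratio, the Mrps18 paralogues, and of other lists the genes past the threshold or else the 2 of highest level. The small RNA counts were not used.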

Additional observations from a re-analysis of the deposited data

How the results depend on the processing

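With 2 cultures per genotype and unknown depth, single members could rarely pass, and a p that misses the threshold does not show that values were alike. No member passed in either genotype comparison under the alternatives tried, except Mrpl18 in preexisting RNA with times averaged on the log2 scale (1 member lower; chosen after seeing the data, as were coding transcripts alone and added pseudogene copies). The median genotype difference of the members stayed negative in each, with a range of -0.54 to -0.16 in preexisting and -0.35 to -0.17 in labelled RNA when 1 culture was left out; in labelled RNA it was -0.47 with 10 minute libraries alone, -0.14 with 15 minute libraries alone and -0.40 with libraries centred on the median gene. Centring gave an intronic median of -0.08. For the change of the preexisting-to-labelled ratio the range without 1 culture was -0.28 to 0.06.

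The count of members that passed in preexisting over labelled RNA moved most. In Dicer-depleted cells it was 13 (1 higher and 12 lower), and 3 to 13 without 1 culture, 5 at 10 minutes alone, 5 at 15 minutes alone, 34 with the scaling to coding genes (0 higher and 34 lower; median -0.60) and 20 with centring (16 higher and 4 lower; median 0.27). In WT cells it was 5 (1 higher and 4 lower), and 0 to 11 without 1 culture, 0 without a filter on low values, 0 at 10 minutes and 2 at 15 minutes alone, 16 with the scaling to coding genes (0 higher and 16 lower; median -0.40) and 13 with centring (13 higher and 0 lower; median 0.34). Centring moves all genes, and the cause was not otherwise tested. Among named members, signs turned at 15 minutes alone for Mrps15 in preexisting RNA (-0.16) and Mrpl45 in the change of ratio (-0.25), at 10 minutes alone for Mrps2 in labelled RNA (-0.06) and with centring for Mrpl24 in the depleted ratio (0.02). Leaving out 1 culture gave ranges across 0 in preexisting RNA for Mrps11 (-0.30 to 0.96), in labelled RNA for Mrpl32 (-0.01 to 0.56), in the change of ratio for Mrpl10 (-0.09 to 0.93), Mrpl45 (-0.36 to 0.92) and Mrps17 (-1.62 to 0.00), and in introns for Mrpl12 (-0.61 to 0.03), Mrps11 (-0.46 to 0.02), Mrps2 (-1.10 to 0.07) and Mrps24 (-0.56 to 0.12).

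The same replicate numbers occur in both genotypes, and the labels name no common batch. The deviations of same-numbered cultures correlated over genes with r = 0.203 in preexisting and 0.131 in labelled RNA, from 2 pairs. Whether same-numbered cultures belong together is not settled by these values. With the replicate block 0 members passed in preexisting, labelled or intronic RNA or in the change of ratio, as without it; over all genes 121 were higher and 19 lower in preexisting RNA, against 19 and 4 without it. A pseudocount of 0.1 TPM gave 120 and 21.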
